A study of Mus musculus with 6 samples.

Results

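The genes of the heterotrimeric G protein subunits were compared between hearts of GRK2+/- mice and hearts of wild-type littermates at 9 months of age. A gene was taken when a probe set of the array was annotated to its symbol alone and the symbol named an alpha subunit (Gna11 to Gna15, Gnai, Gnal, Gnao, Gnaq, Gnas, Gnat, Gnaz), a beta subunit (Gnb1 to Gnb5) or a gamma subunit (Gng and Gngt), with the brightest probe set over the 6 hearts standing for the gene. This gave 31 of the 18193 named genes, 15 alpha, 5 beta and 11 gamma subunits, with 78 probe sets among them. The antisense RNA Gnasas1 shares the letters of Gnas but encodes no subunit and was left out. The gamma subunit Gng5 was not analysed here, because its 3 probe sets were annotated to Gng5 and a pseudogene together. The alpha subunit Gnat3 had no probe set annotated to its symbol alone and was also not analysed.

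The mutant mice were heterozygous for a germline targeted allele of Grk2 (Adrbk1tm1Mca), which is not limited to 1 cell type, on a background backcrossed to C57BL/6J for more than 20 generations. The controls carried 2 wild-type alleles on C57BL/6J and, like the mutants, received no drug or surgery that the labels record. Each group had 3 hearts, and RNA from the upper part of each heart was measured on its own Affymetrix array. Gnaq, Gna14 and Gng3 lie on chromosome 19, as Grk2 does, so they could share flanking DNA with the targeted allele, and the part of such DNA in their values was not tested.

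Heterotrimeric G proteins relay signals from seven-pass receptors on the cell surface: an activated receptor makes the alpha subunit exchange GDP for GTP, and alpha then parts from a beta-gamma dimer, each acting on its own effectors. In cardiomyocytes the Gs alpha subunit raises cyclic AMP downstream of beta-adrenergic receptors, Gi and Go alpha subunits oppose it downstream of muscarinic and adenosine receptors, and Gq and G11 activate phospholipase C beta. GRK2 touches this cycle in several places: free beta-gamma dimers bring it to the membrane, where it phosphorylates active receptors, and its amino-terminal domain binds GTP-loaded Gq alpha.

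No subunit gene passed the threshold, an adjusted p under 0.05 with limma and Benjamini-Hochberg adjustment over all 18193 genes, and neither did any other gene (0%). The smallest adjusted p among the 31 genes was 0.173. Values are log2 probe set levels, and differences are GRK2+/- minus wild type on that scale with limma's standard error. At an unadjusted p under 0.05 there were 6 subunit genes (19.4%, against 14% of all genes), with 3 above wild type (against 6.3%) and 3 below (against 7.7%). The higher genes were Gnai1, Gna13 and Gnaq, and the lower ones Gnao1, Gng7 and Gng8. The values of the 3 hearts of each group did not overlap for 5 genes (16.1%, against 19.1% of all genes), 3 of them above wild type (against 7.44%) and 2 below (against 11.6%), which were the same ones without Gng7. The subunits as a set thus stood near the array as a whole on both counts. With 3 hearts against 3, an exact permutation test of a single gene cannot give a two-sided p below 0.1. Each sample is labelled as a numbered heart, and fewer cells of a type cannot be told apart from less RNA per cell in these bulk samples.

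**Figure D1:**
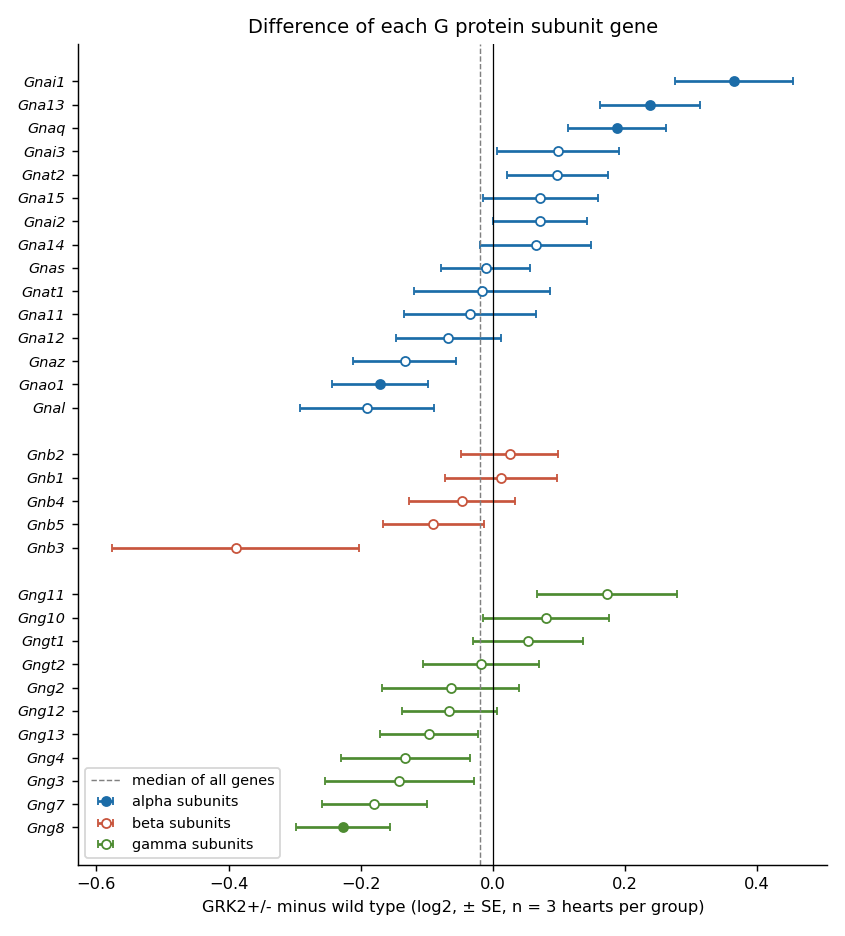
GRK2+/- minus wild-type difference of each of the 31 subunit genes on the log2 scale (horizontal axis, points with standard errors, 3 hearts per group), by class; filled points mark the 5 genes whose groups did not overlap. Differences ran from -0.39 for Gnb3 to 0.36 for Gnai1, and the dashed line is the median of all genes, -0.019.

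Between the arrays, medians lay from 6.26 to 6.31 on the log2 scale and correlations over probe sets from 0.99358 to 0.99673. The ventricular light chain Myl2 read between 15.06 and 15.11 over the 6 hearts. Among the 7 atrial markers, Myl7 read between 5.49 and 5.67, Sln between 5.54 and 5.81, Myl4 between 7.03 and 7.27, Nr2f2 between 8.14 and 8.38 and Nppa between 9.56 and 11.62, and these readings do not show which of them were absent. Grk2 itself was not analysed here, since no probe set carried its name (0 found), and the genotypes rest on the labels alone.

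The promoters of the 5 genes whose groups did not overlap are shown, to let their starts be set side by side. The sequences are RefSeq's for GRCm38.p6, from 250 bases before to 50 bases after the annotated start, read 5′ to 3′ on the strand of the gene, with Gnai1 at chr5:18360364-18360663 on the minus strand, Gna13 at chr11:109362544-109362843 on the plus strand, Gnaq at chr19:16132434-16132733 on the plus strand, Gnao1 at chr8:93810588-93810887 on the plus strand, Gng8 at chr7:16891536-16891835 on the plus strand. The gene annotations of Gnao1 and Gng8 begin further upstream, at 93810153 and 16891737, so their windows are not built on the first base of the gene. Capitals mark the GC box GGGCGG or its reverse complement CCGCCC.
Gnai1: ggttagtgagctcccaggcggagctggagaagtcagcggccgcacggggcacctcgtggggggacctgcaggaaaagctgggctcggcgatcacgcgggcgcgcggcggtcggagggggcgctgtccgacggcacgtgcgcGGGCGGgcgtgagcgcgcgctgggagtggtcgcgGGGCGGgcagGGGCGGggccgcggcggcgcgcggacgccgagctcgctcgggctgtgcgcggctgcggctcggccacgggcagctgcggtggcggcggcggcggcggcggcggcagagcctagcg
Gna13: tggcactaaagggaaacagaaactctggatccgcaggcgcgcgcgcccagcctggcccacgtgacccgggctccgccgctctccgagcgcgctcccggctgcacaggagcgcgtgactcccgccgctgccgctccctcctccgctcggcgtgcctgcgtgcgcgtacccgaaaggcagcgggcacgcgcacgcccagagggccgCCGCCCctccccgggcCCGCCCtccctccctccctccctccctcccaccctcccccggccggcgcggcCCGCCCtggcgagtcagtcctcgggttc
Gnaq: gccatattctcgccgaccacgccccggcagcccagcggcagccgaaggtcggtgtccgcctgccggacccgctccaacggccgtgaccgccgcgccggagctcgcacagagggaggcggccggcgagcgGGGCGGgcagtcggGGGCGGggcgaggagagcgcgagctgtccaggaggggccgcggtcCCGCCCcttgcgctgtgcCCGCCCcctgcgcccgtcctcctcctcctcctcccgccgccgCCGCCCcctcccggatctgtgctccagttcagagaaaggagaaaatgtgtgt
Gnao1: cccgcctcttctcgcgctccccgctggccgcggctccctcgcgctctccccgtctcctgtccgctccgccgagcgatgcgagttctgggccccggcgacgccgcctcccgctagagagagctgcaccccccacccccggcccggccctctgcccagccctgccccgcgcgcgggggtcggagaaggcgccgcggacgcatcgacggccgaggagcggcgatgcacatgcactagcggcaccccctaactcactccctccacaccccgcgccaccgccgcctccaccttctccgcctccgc
Gng8: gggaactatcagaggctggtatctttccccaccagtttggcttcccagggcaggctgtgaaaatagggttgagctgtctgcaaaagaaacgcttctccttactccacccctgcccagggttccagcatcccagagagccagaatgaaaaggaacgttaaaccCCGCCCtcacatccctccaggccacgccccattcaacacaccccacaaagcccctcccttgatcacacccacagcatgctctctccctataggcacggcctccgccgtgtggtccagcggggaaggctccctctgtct

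The starts of Gnai1, Gna13, Gnaq and Gnao1 were rich in G and C, at 80.0%, 76.7%, 75.0% and 76.3% of bases, with 53, 40, 39 and 42 CpG dinucleotides, and that of Gng8 held 58.0% and 8 CpG. Over 32851 promoter windows of the same length the medians were 52.7% and 7 CpG. Over the 23 subunit genes with a window, taking the highest value of each gene, they were 63.7% and 27 CpG. Among subunit genes whose groups overlapped, Gna11 held 75.0% and 48 CpG, and Gngt1 held 43.7% and 4 CpG. Of the 31 genes 23 had at least 1 window in the RefSeq table, 30 windows in all. The GC box was found in 16 of these 30 (53.3%, against 35.7% of all windows), including 5 matches in Gnaq, 3 each in Gnai1 and Gna13, 1 in Gng8 and 0 in Gnao1. Searched in the same way on both strands, TGACG, the core of the cyclic AMP response element, was in 8 of the 30 windows (26.7%, against 20.8%), TATAAA in 5 (16.7%, against 13.6%) and CCAAT in 8 (26.7%, against 37.4%). Some genes had more than 1 window, and windows of Gnas overlapped, so the same site could count more than once. Counted by gene, the GC box was in 14 of the 23 genes, TGACG in 6, TATAAA in 3 and CCAAT in 7. None of these 4 motifs holds another whole motif within its letters.

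Among the alpha subunits, Gnai1 had the largest difference in the direction of higher levels in GRK2+/- hearts. Gnai1 encodes an inhibitory alpha subunit that restrains adenylyl cyclase. Its level was 7.47, 7.46 and 7.70 in GRK2+/- hearts 1, 2 and 3 and 7.30, 7.10 and 7.14 in wild-type hearts 1, 2 and 3. All 3 GRK2+/- hearts lay above all 3 wild-type hearts, by 0.16 at the closest pair. The difference was 0.36 ± 0.09 (SE, n = 3 per group), or 1.29-fold, with an adjusted p of 0.173 from limma. All 3 probe sets of Gnai1 pointed the same way, at 0.36, 0.24 and 0.074. The mean of the 3 probe sets gave 0.23. The brightest one carries the suffix s_at, which the manufacturer gives to probe sets that can match more than 1 transcript.

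The other inhibitory subunits stood closer to 0. Gnai2, an inhibitory subunit of broad tissue distribution, differed by 0.071 ± 0.071, with its second probe set at -0.11. That second probe set read 10.78, 10.63 and 10.73 in GRK2+/- and 10.78, 10.81 and 10.88 in wild-type hearts, with GRK2+/- heart 1 and wild-type heart 1 all but equal, so the 2 probe sets of Gnai2 went in opposite directions. Gnai3 differed by 0.098 ± 0.092 with both probe sets above 0.

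Gnao1 encodes the Go alpha subunit, best known from neurons and also made in heart muscle. Its level was 7.98, 8.02 and 7.85 in GRK2+/- hearts and 8.15, 8.07 and 8.14 in wild-type hearts. The groups did not overlap, with 0.051 between the nearest hearts. The difference was -0.17 ± 0.07 (SE, n = 3 per group; limma adjusted p = 0.337), and its 3 probe sets read -0.17, -0.18 and -0.14. Gnaz, a Gi-class subunit insensitive to pertussis toxin, differed by -0.13 ± 0.08, and its other probe set by 0.014. The transducin alpha subunits of rods and cones, Gnat1 and Gnat2, read 4.94 to 5.28 and 5.56 to 5.83 over the hearts and differed by -0.016 ± 0.103 and 0.098 ± 0.077.

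**Figure D2:**
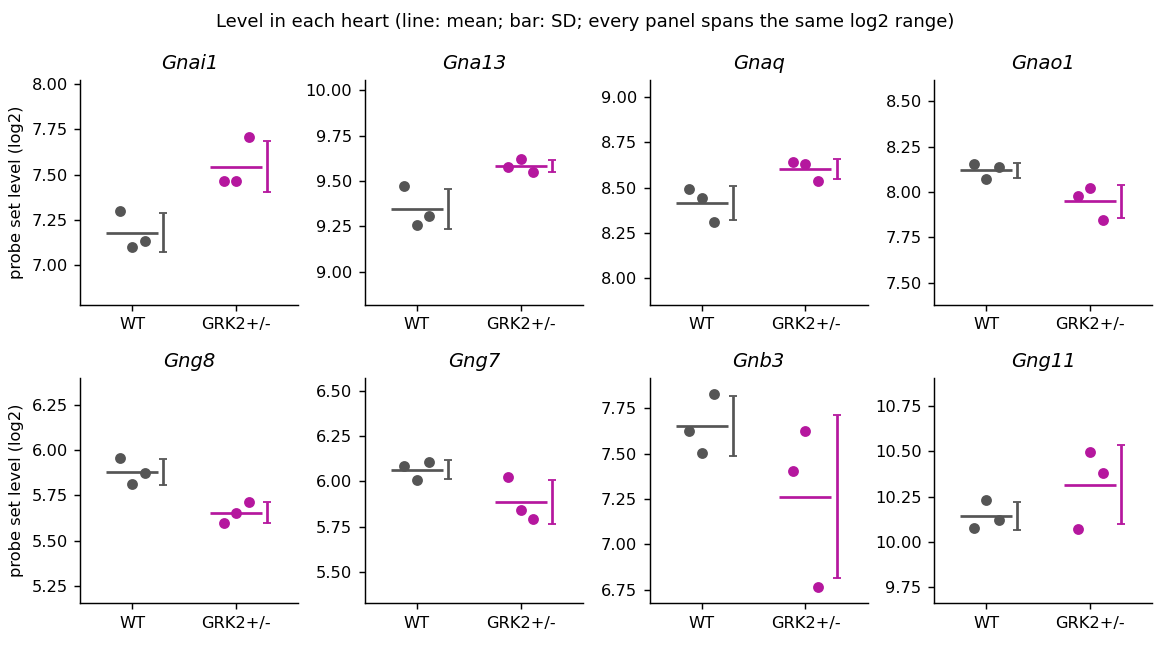
Log2 probe set level (vertical axis, the same span in every panel) in each of 3 wild-type and 3 GRK2+/- hearts for the 6 genes with an unadjusted p under 0.05 and for Gnb3 and Gng11; lines are group means and bars are SD. The groups are apart for Gnai1, Gna13, Gnaq, Gnao1 and Gng8, and overlap for Gng7, Gnb3 and Gng11.

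Of the G12/13 class of alpha subunits, Gna13 was higher in GRK2+/- hearts on 5 of its 7 probe sets. Its level was 9.58, 9.62 and 9.55 in GRK2+/- hearts and 9.47, 9.26 and 9.31 in wild-type hearts. The GRK2+/- hearts lay close together (SD 0.035) and all above the wild-type hearts (SD 0.112), with 0.079 between the nearest. The difference was 0.24 ± 0.08 (SE, n = 3 per group), or 1.18-fold, with a limma adjusted p of 0.241. Its 4 brightest probe sets read 0.24, 0.25, 0.18 and 0.25, and 2 of the 3 dimmer ones were below 0, at -0.020 and -0.096. The mean over its 7 probe sets was 0.12. Its relative Gna12 differed by -0.067 ± 0.080, with all 5 probe sets below 0 and the third brightest of them at -0.26. Whether Gna12 and Gna13 differed from each other was not tested.

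Gnaq, an alpha subunit that activates phospholipase C beta and is bound by GRK2, read 8.64, 8.63 and 8.54 in GRK2+/- hearts and 8.49, 8.45 and 8.31 in wild-type hearts. The groups did not overlap, with 0.049 between the nearest hearts. The difference was 0.19 ± 0.07 (SE, n = 3 per group), or 1.14-fold, with a limma adjusted p of 0.313. The 7 probe sets of Gnaq disagreed: 4 were above 0 and 3 below. The second brightest, at a mean level of 8.50 beside 8.51 for the one used, differed by only 0.027 ± 0.065. A dimmer one, with the suffix s_at, read 7.96, 8.12 and 7.91 in GRK2+/- and 7.63, 7.64 and 7.65 in wild-type hearts. Its difference was 0.36 ± 0.08, with a limma adjusted p of 0.168 over all 45037 probe sets. That was the smallest p of the 78 probe sets of the subunit genes. The mean over the 7 probe sets was 0.052. Gna11, which shares its effectors with Gnaq, differed by -0.035 ± 0.10, with a second probe set at 0.035. Gna14 and Gna15, the members of the class with narrower tissue distribution, differed by 0.065 ± 0.083 and 0.072 ± 0.087.

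For Gnas, the Gs alpha subunit that stimulates adenylyl cyclase, levels were 13.64, 13.52 and 13.54 in GRK2+/- and 13.61, 13.54 and 13.59 in wild-type hearts. The groups overlapped almost fully and differed by -0.011 ± 0.068. The Gnas locus makes several transcripts from different starts, and its other 4 probe sets read between 4.40 and 6.65. One of them read 4.52, 4.56 and 4.52 in GRK2+/- and 4.85, 4.74 and 4.74 in wild-type hearts (difference -0.24 ± 0.07, limma adjusted p = 0.23 over all probe sets), and another differed by 0.20 ± 0.09. Gnal, the closely related Golf subunit of olfactory and striatal neurons, had the lowest alpha difference. It read 6.35, 5.97 and 6.15 in GRK2+/- hearts and 6.23, 6.42 and 6.39 in wild-type hearts. GRK2+/- heart 1 lay among the wild-type hearts, and the difference was -0.19 ± 0.10 (SE, n = 3 per group; limma adjusted p = 0.425). It was -0.29 without GRK2+/- heart 1 and -0.097 without GRK2+/- heart 2. All 3 of its probe sets were below 0.

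The beta subunits form a propeller that is bound to a gamma subunit for life. None of the 5 had an unadjusted p under 0.05. Gnb2 read 10.16, 10.16 and 10.17 in GRK2+/- hearts and 10.26, 10.09 and 10.07 in wild-type hearts, a difference of 0.026 ± 0.074. The 3 GRK2+/- values of Gnb2 lay inside the wild-type range. Gnb1 differed by 0.013 ± 0.085, with 2 of 3 probe sets above 0. Gnb4 differed by -0.046 ± 0.080 with all 3 probe sets below 0. Gnb5, the divergent beta subunit that pairs with RGS proteins of the R7 group, differed by -0.090 ± 0.076 with both probe sets below 0.

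Gnb3, known as the beta subunit of cone photoreceptors, had the lowest difference of all 31 genes and also the widest spread. It read 7.40, 7.63 and 6.76 in GRK2+/- hearts and 7.63, 7.50 and 7.83 in wild-type hearts. GRK2+/- heart 2 lay within the wild-type range, heart 1 just under it and heart 3 far below. Its SD over hearts was 0.45 for GRK2+/- and 0.17 for wild type. The difference was -0.39 ± 0.19 (SE, n = 3 per group; limma adjusted p = 0.385), and it was -0.14 without GRK2+/- heart 3.

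The gamma subunits are small proteins whose carboxyl-terminal lipid holds the dimer at the membrane. Of the 11 measured, 3 were above 0 and 8 below. Gng8, known from olfactory and vomeronasal neurons, read 5.60, 5.65 and 5.71 in GRK2+/- hearts and 5.96, 5.81 and 5.87 in wild-type hearts. The groups did not overlap, with 0.099 between the nearest hearts. The difference was -0.23 ± 0.07 (SE, n = 3 per group; limma adjusted p = 0.236), from the 1 probe set of the gene. Gng7, the partner of Golf in the striatum, read 6.02, 5.84 and 5.79 in GRK2+/- and 6.08, 6.00 and 6.11 in wild-type hearts. GRK2+/- heart 1 lay just above the lowest wild-type heart. The difference was -0.18 ± 0.08 (SE, n = 3 per group, limma adjusted p = 0.353). Gng8 and Gng7 were dim, with means over all hearts of 5.77 and 5.97, below the median level of the gene table, 7.24. Whether their transcripts were present in the hearts was not tested.

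Gng11, a farnesylated gamma subunit of non-neural tissues, had the highest gamma difference. It read 10.07, 10.49 and 10.38 in GRK2+/- hearts and 10.08, 10.23 and 10.12 in wild-type hearts. Hearts 2 and 3 of the GRK2+/- group lay above all wild-type hearts and heart 1 below all of them. The difference was 0.17 ± 0.11 (SE, n = 3 per group; limma adjusted p = 0.485), which was 0.30 without GRK2+/- heart 1 and 0.084 without GRK2+/- heart 2. The widely made subunits Gng10 and Gng12 differed by 0.081 ± 0.095 and -0.066 ± 0.072, and the second probe set of Gng12 by 0.080. Gng2, whose dimers with Gnb1 are the usual laboratory form of beta-gamma, differed by -0.064 ± 0.104, with 1 of its 4 probe sets above 0.

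The next gamma subunits are known chiefly from neurons and sensory cells. Gng3 differed by -0.14 ± 0.11, Gng4 by -0.13 ± 0.10 and Gng13, a subunit of taste cells, by -0.096 ± 0.074. The second probe set of Gng13 read -0.22, and the dimmer probe sets of Gng4 read -0.024 and 0.11. The mean over the 3 probe sets of Gng4 was -0.017. The rod subunit Gngt1 differed by 0.053 ± 0.083, with all 4 probe sets above 0. A dimmer probe set of Gngt1 read 5.94, 5.99 and 5.88 in GRK2+/- and 5.57, 5.64 and 5.75 in wild-type hearts, without overlap and 0.29 ± 0.07 apart (limma adjusted p = 0.21 over all probe sets). The cone subunit Gngt2 differed by -0.018 ± 0.088.

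By class, the median difference was 0.065 over the 15 alpha subunits, with 8 above 0 and 7 below. It was -0.046 over the 5 beta subunits, with 2 above 0 and 3 below (leaving out GRK2+/- heart 2 gave -0.11, leaving out GRK2+/- heart 3 gave -0.018 and leaving out wild-type heart 1 gave -0.0052), and -0.066 over the 11 gamma subunits. All 18193 genes had a median of -0.019, with 43.5% above 0. Within the alpha class the median was 0.071 for the 7 Gi/o genes, 0.068 for the 4 Gq/11 genes, 0.085 for the pair of G12/13 genes and -0.10 for the pair of Gs genes. These medians describe the members and were not tested. Of the 31 genes 13 read below the median level of the gene table, 7.24, with a median difference of -0.064, and 18 at or above it, with 0.00085. No class was apart in every heart. The mean over the alpha genes, relative to wild type, was 0.083, 0.027 and 0.0048 in GRK2+/- hearts 1, 2 and 3 and 0.023, -0.017 and -0.0061 in wild-type hearts. The same mean over the gamma genes was -0.062, -0.028 and -0.078 in GRK2+/- and -0.046, 0.022 and 0.024 in wild-type hearts. GRK2+/- heart 3 in the alpha class and heart 2 in the gamma class lay inside the wild-type range. Over the beta genes it was -0.089, -0.0025 and -0.20 against 0.066, -0.060 and -0.0069, the lowest value being that of the heart with the low Gnb3.

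**Figure D3:**
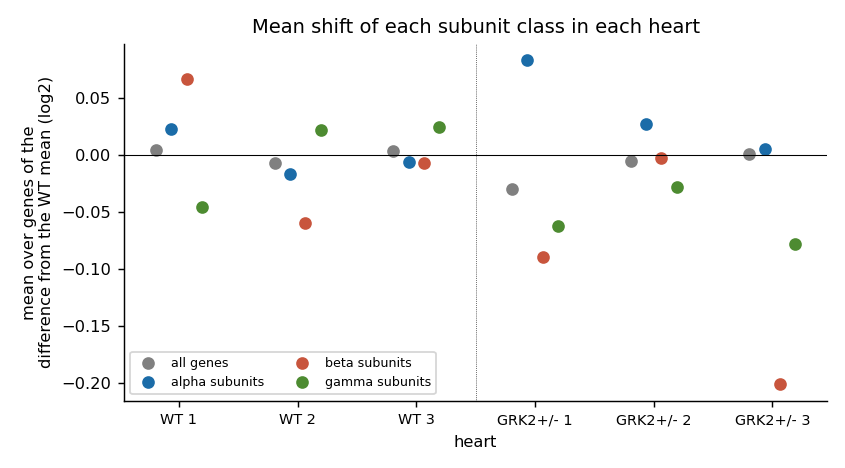
Mean over the genes of each class of the log2 difference from the wild-type mean (vertical axis) in each heart (horizontal axis), with all 18193 genes in grey. Every class overlaps between wild-type and GRK2+/- hearts, and the lowest point, -0.20, is the beta class in GRK2+/- heart 3.

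Probe sets of 1 gene did not always go together. Of the 31 genes 11 had 1 probe set, 9 had several that all pointed the same way, and 11 had at least 1 that pointed against the probe set used. The genes whose probe sets agreed were Gna12, Gnai1, Gnai3, Gnal, Gnao1, Gnb4, Gnb5, Gng13 and Gngt1. Over the 78 probe sets 15 had an unadjusted p under 0.05 (19.2%, against 12.8% of 45037 probe sets), 9 higher and 6 lower, and 13 did not overlap between groups (16.7%, against 17.9%). With limma 0 of the 78 passed an adjusted p of 0.05 over all probe sets, where 0% did.

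**Figure D4:**
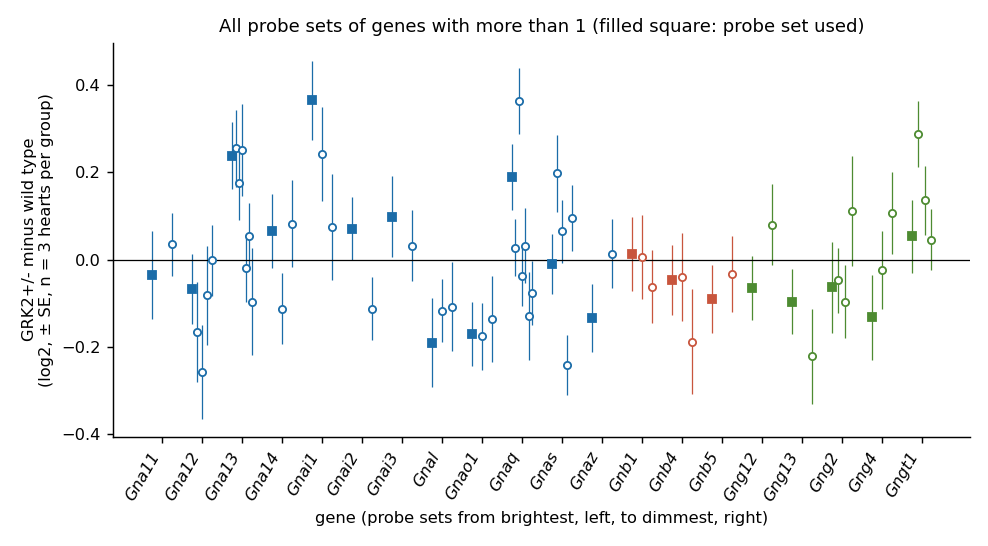
GRK2+/- minus wild-type difference (vertical axis, log2, with standard error, 3 hearts per group) of every probe set of the 20 genes with more than 1, ordered from bright to dim within a gene; filled squares are the probe sets used. The brightest probe sets of Gna13 lie above 0 together, those of Gnao1 and Gnal lie below 0 together, and those of Gnaq and Gnas spread to both sides.

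Of 71 other genes of the pathway, in 4 lists, 11 had an unadjusted p under 0.05 (15.5%, against 14% of all genes). Of these, 8 were above wild type (against 6.3% of all genes) and 3 below (against 7.7%), and 0 passed an adjusted p of 0.05 with limma. The 27 direct effectors had a median difference of -0.0097. Of them 3 were higher, 2 lower and 22 not past that unadjusted threshold (18.5% past it, against 14% of all genes). Kcnj3 and Kcnj5, the subunits of the cardiac potassium channel that beta-gamma dimers open, differed by 0.32 ± 0.09 and 0.27 ± 0.09, without overlap between groups. Kcnj5 read 8.84, 8.73 and 8.88 in GRK2+/- and 8.73, 8.42 and 8.50 in wild-type hearts. The second probe set of Kcnj5 pointed the other way, as did 2 of the 4 of Kcnj3. Arhgef12, a direct effector of Gna12 and Gna13, differed by 0.31 ± 0.10, with levels of 10.92, 11.01 and 10.77 against 10.75, 10.59 and 10.42. Adcy1, a neuronal adenylyl cyclase, differed by -0.19 ± 0.08, and Arhgef25, a direct effector of Gq, by -0.18 ± 0.08. The direction was shared by 3 of the 4 probe sets of Arhgef12, 2 of the 2 of Adcy1 and only 2 of the 4 of Arhgef25. The cardiac adenylyl cyclases Adcy5 and Adcy6 differed by 0.016 ± 0.064 and 0.017 ± 0.097.

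Of the 16 folding and exchange partners of the subunits, 2 were higher, 1 lower and 13 not past the unadjusted threshold (18.8% past it, against 14% of all genes). Gpsm3 and Gpsm2, which bind GDP-loaded Gi alpha, differed by 0.30 ± 0.12 and -0.24 ± 0.10, and the DnaJ protein Dnajc14 by 0.23 ± 0.09. For Dnajc14, 2 of 3 probe sets were above 0. The exchange factor Ric8a, which folds Gi, Gq and G12 class subunits, differed by -0.0067 ± 0.075. Of 11 genes of lipid attachment and processing, 1 was higher and 10 were not past the threshold (9.09% past it, against 14%). That gene was Pggt1b, a subunit of the enzyme that attaches the geranylgeranyl lipid to most gamma subunits. It read 9.22, 9.40 and 9.28 in GRK2+/- and 9.05, 9.07 and 8.99 in wild-type hearts, a difference of 0.26 ± 0.07 (limma adjusted p = 0.2). For Pggt1b, 3 of 4 probe sets were above 0. Of 17 RGS genes, whose products speed GTP hydrolysis on alpha subunits, 2 were higher and 15 were not past the threshold (11.8% past it, against 14%). Rgs4 differed by 0.30 ± 0.11 and Rgs7 by 0.22 ± 0.09.

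Marker lists of other cell types stood in both directions in the same hearts. The mean level of 10 smooth muscle and pericyte markers ranged from 9.73 to 9.86 in GRK2+/- and from 9.64 to 9.69 in wild-type hearts, with 7 of 10 markers above 0 (Rgs5 is also among the RGS genes). That of 8 endothelial markers ranged from 9.19 to 9.37 against 8.96 to 9.16, with 7 of 8 above 0, and that of 6 epicardial markers from 6.15 to 6.23 against 5.92 to 6.01, with 6 of 6 above 0. Fibroblast markers (7 genes) overlapped, at 10.13 to 10.27 against 10.02 to 10.17, as did leukocyte markers (10 genes), at 8.09 to 8.17 against 7.99 to 8.14. Neurons are the cells best known for Gnao1, Gng3 and Gng4. Markers of neurons and Schwann cells had 7 of 10 genes measured, and their mean ranged from 6.26 to 6.37 against 6.23 to 6.38. Of these, S100b and Sox10 were above 0 and the 5 others below, and 0 had an unadjusted p under 0.05 with limma (against 14% of all genes). The 7 cardiomyocyte markers ranged from 14.33 to 14.39 against 14.29 to 14.35. The 7 atrial markers were lower without overlap, at 6.83 to 6.98 against 7.001 to 7.105, with Nppa differing by -1.20 and 4 of the 7 above 0. Ventricular markers (6 genes) ranged from 10.08 to 10.43 against 10.23 to 10.35, adipocyte markers (4 of 6 measured) from 7.09 to 7.16 against 7.09 to 7.28, and erythroid markers (3 of 5 measured) from 6.999 to 7.077 against 6.72 to 7.14. Between the 3′ and 5′ probe sets of beta-actin, which are sensitive to RNA degradation, the gap averaged 0.98 in the GRK2+/- arrays (SD 0.08) and 0.78 in the wild-type arrays (SD 0.04), without overlap. For Gapdh it averaged 0.030 (SD 0.016) and 0.0051 (SD 0.039), and for pyruvate carboxylase 1.77 (SD 0.07) and 1.75 (SD 0.05), both with overlap. The part of these markers and controls in the differences of the subunit genes was not tested.

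**Figure D5:**
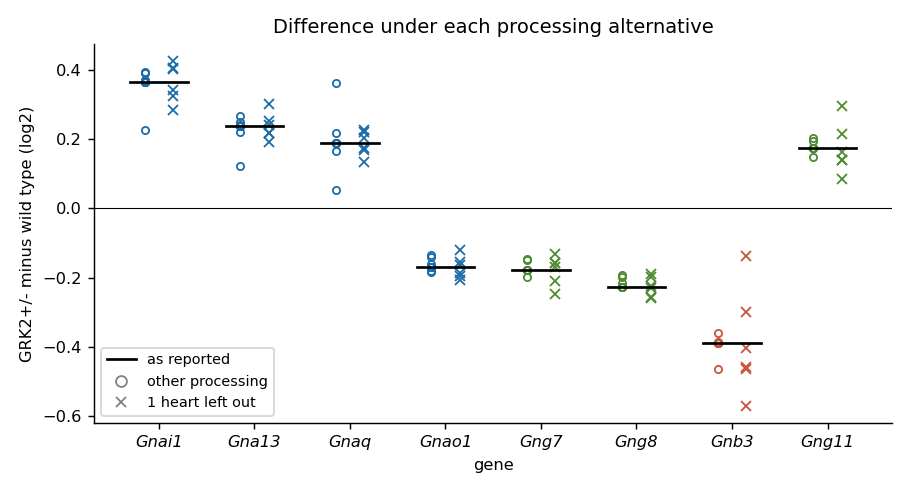
GRK2+/- minus wild-type difference (vertical axis, log2) of 8 subunit genes as reported (black line), under other processing choices (open circles) and with 1 heart left out (crosses). The sign of all 8 held in each of these settings, while Gnaq ranged from 0.052 to 0.36 and Gnb3 from -0.57 to -0.14.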

How the data were processed

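Total RNA of 6 mouse hearts had been hybridised to Affymetrix arrays, 1 per heart. The authors deposited log2 probe set levels. The submitters' processing notes name RMA and limma, without versions, and do not say whether RMA was run on all arrays at once. The values are relative brightness, so where a probe set stands on the scale is given only as a description, and no test sets levels of different probe sets against each other. Of 45101 probe sets, 64 were controls and not tested, and 34945 of the other 45037 had 1 gene symbol. For 34741 of these the symbol was taken from RefSeq (GRCm38.p6) through the Entrez identifier, whether or not it differed from the annotation. The brightest probe set over the 6 arrays stood for each gene. Differences were fitted over all 18193 genes, or all probe sets, with limma (version 3.58.1, R 4.3.3, lmFit and eBayes, two-sided) and Benjamini-Hochberg adjustment, with a threshold of 0.05. The p-values rest on the spread between arrays within a group, which limma draws toward the spread typical of all genes. With 1 array per heart, spread between hearts cannot be told apart from spread between arrays. Precision is limited by having 3 arrays per group. The fit was tested on simulated data. The members, the pathway and marker lists and the tests were chosen with earlier results of these data known. Every member was named, in full when its unadjusted p was under 0.05, its groups did not overlap or its difference was the highest or lowest of its class. From each pathway list up to 4 genes with the smallest p under 0.05 were named, and Arhgef25, Adcy5, Adcy6 and Ric8a were added after their values were seen. Medians over classes are descriptions. The alternatives were another probe set or the mean of probe sets per gene, centring, quantile normalisation, filters on dim genes, other variance models, array weights, a replicate block and leaving out each heart. Heart numbers are shared between the groups, but the correlations of deviations of same-numbered hearts were -0.18, -0.0051 and 0.016, so the numbers were not used to pair hearts.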

Additional observations from a re-analysis of the deposited data

How the results depend on the processing

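In 16 alternative settings 0 of the subunit genes passed an adjusted p of 0.05 with limma. The sign held in every setting run for 20 of the 31 genes, among them Gnai1, Gna13, Gnaq, Gnao1, Gng7 and Gng8. The other 11 differed by at most 0.072 in size as reported. The unadjusted p stayed under 0.05 in all 16 settings for Gnai1, in all 15 settings run for Gng8, in 15 of 16 for Gna13, 12 of 16 for Gnaq, 8 of 16 for Gnao1 and 6 of 15 for Gng7. Genes dimmer than a filter could not be given a value under it. Over all genes the count past an adjusted p of 0.05 was 12 in place of 0 with the most variable probe set, 6 without genes under the median level, 42 with a trend on the mean level, 12 with array weights, and between 0 and 56 with 1 heart left out, the highest without GRK2+/- heart 1. With the replicate block it was 1, and 0 subunit genes passed. No heart of the 6 correlated best with the heart of its own number in the other group. The count of subunit genes at an unadjusted p under 0.05 lay between 3 and 6 with 1 heart left out, the lowest without wild-type heart 3, beside 8.87% to 16.7% of all genes. The count without overlap lay between 6 and 11, beside 25.6% to 35.5% of all genes, since fewer hearts overlap less often. The gamma median was -0.018 with the most variable probe set and again -0.018 with the mean of probe sets, 0.0074 without genes under the median level, and between -0.12 and -0.044 with 1 heart left out. The alpha median was 0.012 with the mean of probe sets and between -0.0074 and 0.071 with 1 heart left out, negative without GRK2+/- heart 1. The beta median lay between -0.11 and -0.0052 with 1 heart left out.

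Signs turned as follows. Where the most variable probe set turned a sign, it was another probe set of the same gene. Centring shifted all genes of an array by the same amount. Why probe sets of a gene differed was not tested. With the most variable probe set Gnai2 was -0.11, Gnas 0.20, Gng12 0.080 and Gng2 0.11. With the mean of probe sets Gna11 was 0.00013, Gnai2 -0.020, Gnas 0.021, Gnb1 -0.015 and Gng12 0.0070. After centring Gnas was 0.018, Gnat1 0.013 and Gngt2 0.011, and after quantile normalisation Gnat1 was 0.019, Gnb1 -0.0031 and Gngt2 0.013. With 1 heart left out, Gna14 ranged from -0.0074 to 0.14, Gna15 from -0.0021 to 0.12, Gnb1 from -0.054 (also -0.034) to 0.076, Gngt2 from -0.093 to 0.043 (also 0.034), Gna11 from -0.12 to 0.044 (also 0.040), Gnas from -0.045 to 0.012 (also 0.00090 and 0.0050), Gnat1 from -0.095 to 0.071 (also 0.057), Gng2 from -0.18 to 0.023 and Gnb2 from -0.0085 (also -0.00094) to 0.086. The median over all genes was -0.019 as reported and 0.010 after centring.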

Other observations

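GRK2+/- heart 3, the heart with the low Gnb3, also had the lowest level of the stress-associated genes Myh7 and Nppa, a comparison chosen after the values were seen. Myh7, the slow myosin heavy chain, read 9.43, 10.56 and 8.99 in GRK2+/- hearts 1, 2 and 3 and 10.84, 10.29 and 10.19 in wild-type hearts. Nppa, the atrial natriuretic peptide, read 9.68, 10.67 and 9.56 in GRK2+/- and 10.93, 11.62 and 10.95 in wild-type hearts. Within the GRK2+/- group all of Gnb3, Myh7 and Nppa were highest in heart 2 and lowest in heart 3. The wild-type hearts had no common order: heart 3 was highest for Gnb3, heart 1 for Myh7 and heart 2 for Nppa. Most other atrial and ventricular markers did not share the order of the GRK2+/- hearts. Myl7, Myl4, Sln, Nr2f2, Bmp10 and Irx4 were highest in GRK2+/- heart 3 of that group, and Fgf12, Irx5 and Hey2 had other orders. Only Myl2 and Myl3 shared it, within narrow ranges.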
